A study of Mus musculus with 8 samples.

Results

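Complement is a set of plasma proteins, most of them made by hepatocytes, that tag and lyse microbes. Described here are 9 complement genes of the liver, chosen by name from the annotation of the arrays: Mbl1 and Mbl2, C4b, C3, Cfb, and the terminal genes C6, C8a, C8b and C9. All 9 were measured, through 20 of the 62976 features (spots) of the array, and they are 9 of the 20738 named genes tested. Liver RNA was from male CD-1 mice, an outbred stock, and was hybridised to 8 Agilent arrays with a single dye. The NaPB group (4 arrays) had eaten 2500 ppm NaPB in the diet for 7 days (NaPB is sodium phenobarbital, a barbiturate known to activate the nuclear receptor CAR in hepatocytes), and the control group (4 arrays) had eaten 0 ppm for the same time. The labels name no batch, nor do they state that each array is another animal. Every p-value therefore reflects only how far these samples spread, and that spread may be technical. The comparison asks which of these liver transcripts differed between the diets.

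Complement is started in 3 ways. In the classical and lectin pathways, recognition proteins (C1q, or lectins such as the mannose-binding lectins) bound to a surface activate serine proteases that cleave C4 and C2, whose fragments form an enzyme that cleaves C3. In the alternative pathway, factor B joins C3b to form another such enzyme. Cleavage of C5 then starts the terminal pathway, in which C6, C7, C8 and many copies of C9 assemble into a pore, the membrane attack complex. In mice, terminal components are known to be more active in males than in females.

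On the NaPB diet, 6 of the 9 genes had lower values on every array than on any control array. These were C9 (4.26-fold lower), C6 (2.02-fold), C8b (2.01-fold), C8a (1.97-fold), C4b (1.92-fold) and Mbl1 (1.90-fold). None of the 9 passed the limma test after Benjamini-Hochberg adjustment over all 20738 genes, with adjusted p from 0.111 (C6) to 0.978 (C3), so none is called higher or lower. C3, at the centre of the cascade, and Mbl2 had log2 fold changes close to 0, and Cfb lay between, with overlapping diets. In the same fit, 1.01% of all genes passed at the 0.05 level after adjustment, 0.391% higher and 0.617% lower on the NaPB diet. Values lower on every NaPB array were found for 4.31% of all genes, and 5.77% had an unadjusted p below 0.05 with a lower NaPB mean, a criterion that the same 6 genes met. The median log2 fold change was −0.94 over the 9 genes and 0.01 over all genes, and 8 of the 9 lay below 0. The genes were picked with earlier results of these data known, so these counts describe them and carry no test.

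The arrays worked as a check of the diet: Cyp2b10, the P450 gene classically induced by phenobarbital, was 114-fold higher on the NaPB diet (limma adjusted p = 0.0018). Across genes, which are no independent replicates, Pearson correlations of log2 values were 0.914 to 0.968 within the NaPB diet, 0.914 to 0.965 within the control diet and 0.871 to 0.954 between diets. NaPB replicate 4 and control replicate 1 stood apart, with array weights of 0.313 and 0.308 against 1.14 to 1.98 for the others. NaPB replicate 2 held only 3443 distinct values over its 62976 features, against 62756 to 62839 on the other arrays. What this changes in its values was not tested. No member's value on any array lay within 2 times the lowest value of that array, taken here as the floor. Values are the deposited intensities, already scaled so that the 75th percentile of each array was between 0.952 and 0.974. They have no unit, and levels of different genes cannot be set against each other. The number of arrays limits the precision.

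**Figure D1:**
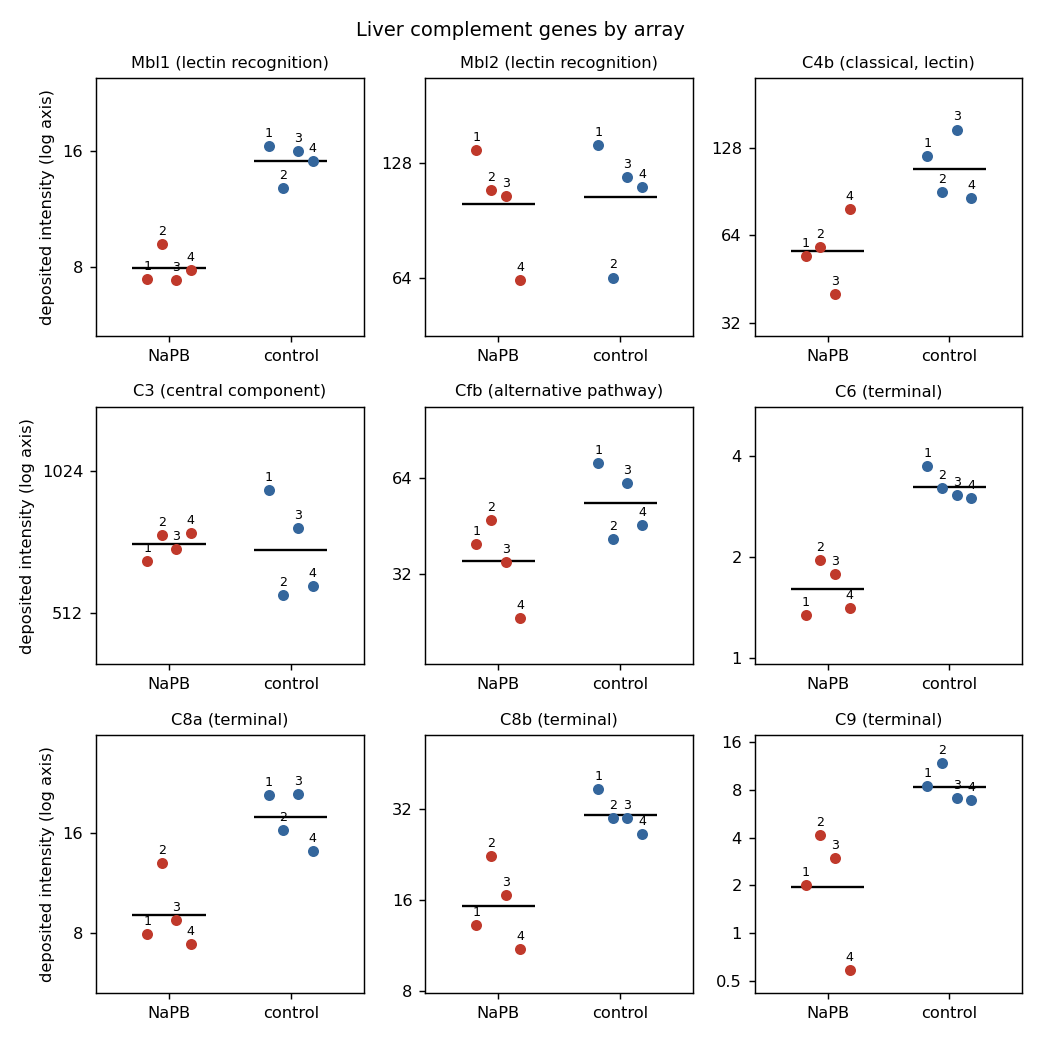
Deposited intensity (log axis) of the 9 complement genes on each array, 1 panel a gene, with NaPB arrays left and control arrays right; points are arrays numbered by replicate and bars are geometric means (n = 4 each). For C9, C6, C8a, C8b, C4b and Mbl1 every NaPB point lies below every control point, and for C3, Mbl2 and Cfb the diets overlap.

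Promoter windows of genes on both sides of this pattern are shown first, to give the sequence context of the genes. The windows are the 250 bases before the annotated start, from RefSeq on GRCm38.p6. C9 and C8b stand for the terminal genes with lower values, Mbl1 for the lectins, and C3 for the genes near 0. Capitals mark matches, on either strand, to TTCNNNGAA (a STAT-type palindrome), TTGCNNAA (C/EBP-type) or GTTAAT (an HNF1-type site), the motifs of factor families known for acute phase and hepatocyte genes. C9 lies at chr15:6445096-6445345 on the + strand, C8b at chr4:104766067-104766316 on the + strand, Mbl1 at chr14:41151206-41151455 on the + strand and C3 at chr17:57228137-57228386 on the − strand.
C9: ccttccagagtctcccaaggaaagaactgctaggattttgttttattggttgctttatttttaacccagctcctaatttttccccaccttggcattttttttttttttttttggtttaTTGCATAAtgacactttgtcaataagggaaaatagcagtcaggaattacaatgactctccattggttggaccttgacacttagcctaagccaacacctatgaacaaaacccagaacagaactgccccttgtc
C8b: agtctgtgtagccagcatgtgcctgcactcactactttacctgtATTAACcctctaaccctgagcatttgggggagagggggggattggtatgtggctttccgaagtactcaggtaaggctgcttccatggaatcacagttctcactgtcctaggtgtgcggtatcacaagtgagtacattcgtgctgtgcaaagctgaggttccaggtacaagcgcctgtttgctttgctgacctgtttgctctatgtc
Mbl1: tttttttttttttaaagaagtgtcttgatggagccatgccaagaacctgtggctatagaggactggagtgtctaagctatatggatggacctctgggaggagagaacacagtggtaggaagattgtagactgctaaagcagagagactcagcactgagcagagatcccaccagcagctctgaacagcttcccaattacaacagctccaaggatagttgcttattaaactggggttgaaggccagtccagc
C3: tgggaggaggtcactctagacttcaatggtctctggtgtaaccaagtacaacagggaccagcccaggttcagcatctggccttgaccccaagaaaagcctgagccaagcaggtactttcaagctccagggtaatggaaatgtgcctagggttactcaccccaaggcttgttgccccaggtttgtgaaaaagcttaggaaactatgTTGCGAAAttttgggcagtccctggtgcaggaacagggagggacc

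Counted back from the start, the C/EBP-type letters of C9 run from −132 to −125 and those of C3 from −45 to −38. The match of C8b is to the HNF1-type letters, from −206 to −201, and the Mbl1 window holds none of the 3 motifs. RefSeq windows were on hand for 7 of the 9 genes, all but C4b and Cfb. Those of C6, C8a and Mbl2 reach into the annotated span of the gene and are not printed; among them, C8a holds a STAT-type match from −228 to −220 and an HNF1-type site from −107 to −102. Of the 7 windows, 1 held the STAT-type letters, 2 the C/EBP-type letters and 2 the HNF1-type letters, against 7.02%, 9.56% and 6.43% of 32851 promoter windows of the same length. The matches stand in genes with lower values (C9, C8a, C8b) and in C3, whose diets overlap, and a match describes letters in a window, not a bound site.

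None of the 4 terminal genes among the members overlapped between the diets, and all lay lower on the NaPB diet. Among all genes, 4.31% lay lower without overlap. Of the other terminal genes, described below, Hc and C8g did overlap. C9, which forms the ring of the pore, had intensities of 2.01, 4.12, 2.99 and 0.59 on NaPB replicates 1 to 4, against 8.46, 11.7, 7.05 and 6.86 on control replicates 1 to 4. All NaPB arrays were below all control arrays, and NaPB replicate 4 was by far the lowest. The geometric mean was 1.96 on the NaPB diet (log2 SD 1.23, n = 4) and 8.32 on the control diet (log2 SD 0.36, n = 4). This gave a log2 fold change of −2.09 ± 0.53 (SE; 95% interval −3.26 to −0.92), with a limma adjusted p of 0.116. Without NaPB replicate 4 the log2 fold change of C9 was −1.51 and the limma adjusted p 0.0601. The direction was therefore carried by the other NaPB arrays too, at a smaller size.

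C6, the component that binds activated C5 and starts the assembly, had intensities of 1.34, 1.95, 1.78 and 1.41 on NaPB arrays, against 3.73, 3.20, 3.05 and 3.00 on control arrays. The diets were well apart, with the lowest control value above the highest NaPB value. The log2 fold change was −1.01 ± 0.25 (95% interval −1.57 to −0.46; limma adjusted p = 0.111), the smallest p of the 9 genes. C6 passed under 4 of the alternative settings: with array weights (limma adjusted p = 0.0332), with dim genes left out (0.0437), with a pseudocount of 1 (0.0254) and after quantile normalization (0.0389).

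C8a and C8b encode the alpha and beta chains of C8, and they are neighbouring genes on mouse chromosome 4. C8b gave 13.1, 22.3, 16.6 and 11.0 on the NaPB arrays, against 37.3, 29.7, 29.8 and 26.3 on the control arrays. For C8a the values were 7.91, 12.9, 8.75 and 7.37 on the NaPB arrays and 20.8, 16.3, 21.0 and 14.1 on the control arrays. Neither gene overlapped between the diets, and in both NaPB replicate 2 was the highest NaPB array and NaPB replicate 4 the lowest. C8b had a log2 fold change of −1.01 ± 0.29 and C8a of −0.98 ± 0.28, with limma adjusted p of 0.185 and 0.186. The second, dimmer feature of C8a did not overlap either and gave −1.10 ± 0.30. The difference between the log2 fold changes of the chains, C8a minus C8b, was 0.03 ± 0.12 (SE), so the chains differed by less than the spread between arrays.

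Among the recognition and activation genes, Mbl1 and C4b were lower and the others overlapped. Mbl1 encodes a mannose-binding lectin of mouse plasma (MBL-A). Its intensities were 7.43, 9.16, 7.41 and 7.83 on NaPB arrays, against 16.5, 12.9, 16.1 and 15.1 on control arrays. The spread within each diet was small (log2 SD 0.14 on the NaPB diet and 0.16 on the control diet, n = 4 each). The log2 fold change was −0.93 ± 0.24 (95% interval −1.46 to −0.39; limma adjusted p = 0.129). Mbl1 passed with array weights (limma adjusted p = 0.0288) and with a pseudocount of 1 (0.0145).

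Mbl2 encodes the other plasma mannose-binding lectin (MBL-C). It stood at 139, 109, 105 and 62.9 on the NaPB arrays, against 143, 64.1, 118 and 111 on the control arrays. Each diet had an array near the low end, NaPB replicate 4 and control replicate 2, and the ranges overlapped nearly in full. The 99th percentile of all features was also lowest on these arrays, at 60.6 and 64.1, against 78.4 to 120 on the others. The part of this in the Mbl2 values was not tested. After quantile normalization the log2 fold change of Mbl2 was −0.22 ± 0.19. In the main fit it was as follows. The log2 fold change was −0.06 ± 0.34, and its 95% interval of −0.82 to 0.70 includes a difference of the size seen for Cfb. Its sign turned under several settings, among them leaving out NaPB replicate 4 (0.16) or control replicate 1 (0.09).

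C4b encodes complement C4, whose cleaved form is part of the classical and lectin enzyme that cleaves C3. The 4 NaPB arrays gave 54.5, 58.1, 40.3 and 79.1, against 120.0, 90.1, 148 and 85.8 on the control arrays. NaPB replicate 4 was the highest NaPB array here, close under the lowest control array. The log2 fold change was −0.94 ± 0.30 (95% interval −1.62 to −0.27; limma adjusted p = 0.257). Its near-identical paralog C4a is not named in the annotation used here, and a C4b probe could also bind C4a RNA, so the value may mix both.

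C3, cleaved by every pathway, showed no difference that these arrays could resolve. Its brightest feature read 662, 748, 699 and 758 on the NaPB arrays, against 931, 560, 776 and 584 on the control arrays. The NaPB values lay within the control range. The log2 fold change was 0.04 ± 0.26 (95% interval −0.54 to 0.62; limma adjusted p = 0.978), an interval that leaves out a difference as large as the one for C6. All 11 features of C3 lay between −0.12 and 0.08, and their sign differed from feature to feature. The value table gives no probe names, so these may be repeat spots of the same probe, and they are not counted as separate measurements.

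Cfb encodes factor B, the protease of the alternative pathway. NaPB arrays had 39.96, 47.4, 35.01 and 23.4, against 71.4, 41.3, 61.6 and 45.7 on control arrays, so that NaPB replicate 2 lay above control replicates 2 and 4. The log2 fold change was −0.60 ± 0.31 (95% interval −1.29 to 0.08, limma adjusted p = 0.59). It was −0.41 without NaPB replicate 4, and −0.71 ± 0.15 after quantile normalization (limma adjusted p = 0.0624).

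Over all 62976 features fitted singly, 1.02% were called at an adjusted p below 0.05, and none of the 20 complement features was. An exact two-sided permutation test of the diets, taken gene by gene, gave p = 0.0286 for each of the 6 genes without overlap. That is the smallest p that 4 arrays against 4 can give, and adjusted over all genes it was 0.406. Every gene without overlap gets this same p, and 7.04% of all genes had no overlap. No gene could therefore pass this test after adjustment. For Cfb the exact permutation p was 0.114, for Mbl2 0.686 and for C3 0.886.

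**Figure D2:**
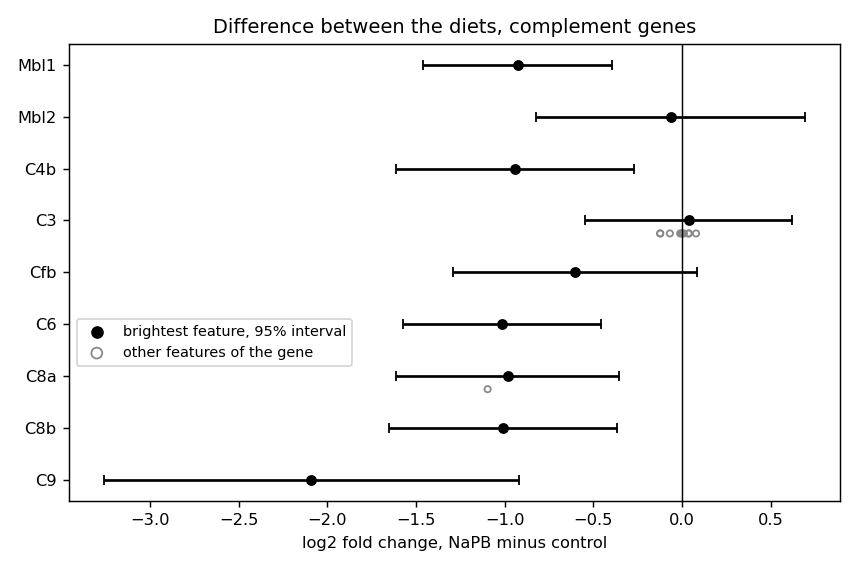
Log2 fold change (NaPB minus control, x axis) of the 9 complement genes in order of the cascade; filled points are the brightest feature of each gene with its 95% interval from limma (n = 4 arrays per diet), and open points are the other features of C3 and C8a. The intervals of Mbl2, C3 and Cfb include 0, C9 lies lowest at −2.09, and no gene passed after adjustment over all genes.

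The members with close relatives were set against each other in 3 pairs, chosen after their values were seen. C4b and C3 belong to the same thioester protein family; the difference of their log2 fold changes, C4b minus C3, was −0.98 ± 0.21 (SE), with no overlap between diets. Its exact two-sided permutation p was 0.0286, the smallest possible, and 0.0856 after Benjamini-Hochberg adjustment over the 3 pairs. For Mbl1 minus Mbl2 the difference was −0.86 ± 0.31, with overlap (exact permutation p = 0.0571, adjusted 0.0856). None of the 3 differences passed after adjustment.

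Array by array, the members did not move as a block. NaPB replicate 4 was the lowest NaPB array for 5 of the 9 genes (C9, C8a, C8b, Cfb and Mbl2) and the highest for C4b and C3. NaPB replicate 2 was the highest NaPB array for 6 of the 9. C9 deviated from its control mean by −3.82 log2 units on NaPB replicate 4, and by −2.05 to −1.01 on the other NaPB arrays. For C4b the deviation was −0.45 on NaPB replicate 4, and −1.43 to −0.90 on the others. Among control arrays, replicate 1 was the highest for 6 genes. Across the NaPB arrays C6 deviated by −1.27 to −0.73 and Mbl1 by −1.02 to −0.72.

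**Figure D3:**
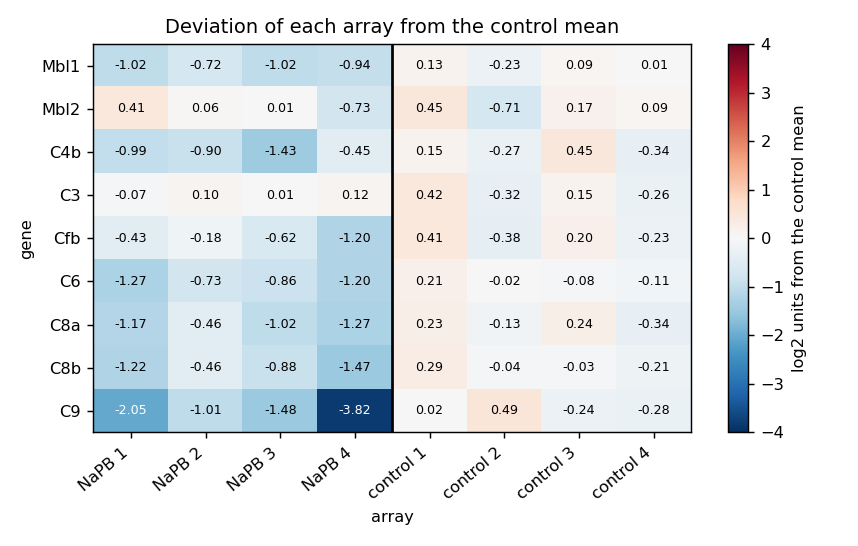
Deviation of each array (columns, NaPB left of the line and control right of it) from the control mean of the gene (rows), in log2 units, with the value printed in each cell. C9 on NaPB replicate 4 is the lowest cell at −3.82, and C3 and Mbl2 are near 0 on NaPB replicates 2 and 3.

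The rest of the complement system was measured through lists of genes set by role. Of 14 other classical and lectin activation genes, none passed and 10 lay below 0, with a median log2 fold change of −0.59. Of the 14, 7 did not overlap, all lower, against 4.31% of all genes that lay lower without overlap. The smallest p values belonged to C1qa (−1.05 ± 0.24; limma adjusted p = 0.082), C1s1 (−1.02 ± 0.27) and C1s2 (−0.76 ± 0.28), followed by C1rb (−0.74 ± 0.28) and C1ra (−0.81 ± 0.31). C1qa encodes a chain of C1q, made in liver by macrophages, and C1r and C1s are the proteases bound to it. The genes of the other C1q chains, C1qb (−0.53 ± 0.24) and C1qc (−0.74 ± 0.31), also lay below 0, C1qc with overlap. The probes of the near-identical mouse copies of C1r and C1s may read each other's RNA. Masp1 (0.23 ± 0.29) and Masp2 (0.26 ± 0.33), the proteases that work with the lectins, lay above 0.

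The other terminal genes were Hc, which encodes C5 (−1.02 ± 0.36; limma adjusted p = 0.315), C7 (−0.51 ± 0.26) and C8g, the gamma chain of C8 (−0.12 ± 0.36). All 3 lay below 0, none passed, and C7 alone had no overlap (4.31% of all genes lay lower without overlap). Hc read 47.3, 130, 63.2 and 51.7 on the NaPB arrays, against 188, 126, 112 and 127 on the control arrays, with NaPB replicate 2 inside the control range. C8g differs in this from C8a and C8b, but the difference was not tested. Cfd and Cfp, of the alternative pathway, had log2 fold changes of 0.18 ± 0.58 and 0.31 ± 0.26.

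Of 16 complement regulator genes, 1 fell, none rose and 15 did not pass (median −0.33). Among all genes, 0.617% were called lower and 0.391% higher. The gene that fell was Susd4, a membrane protein with complement control domains reported to inhibit complement activation. Its intensities were 0.53, 1.10, 1.57 and 0.64 on NaPB arrays, against 11.0, 5.51, 9.30 and 3.59 on control arrays. It was 7.65-fold lower (log2 −2.94 ± 0.45; limma adjusted p = 0.0128) and was called in each of the 8 fits that left out 1 array. The soluble regulators Cfi (−0.71 ± 0.27), which cleaves C3b and C4b, and Serping1 (−0.76 ± 0.29), the C1 inhibitor, did not overlap between the diets and did not pass. The same held for Cpn2 (−0.80), a subunit of the carboxypeptidase that trims C3a and C5a. Among all genes, 4.31% lay lower without overlap. Clu, clusterin, which binds the terminal complex, had a log2 fold change of 0.29 ± 0.27.

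**Figure D4:**
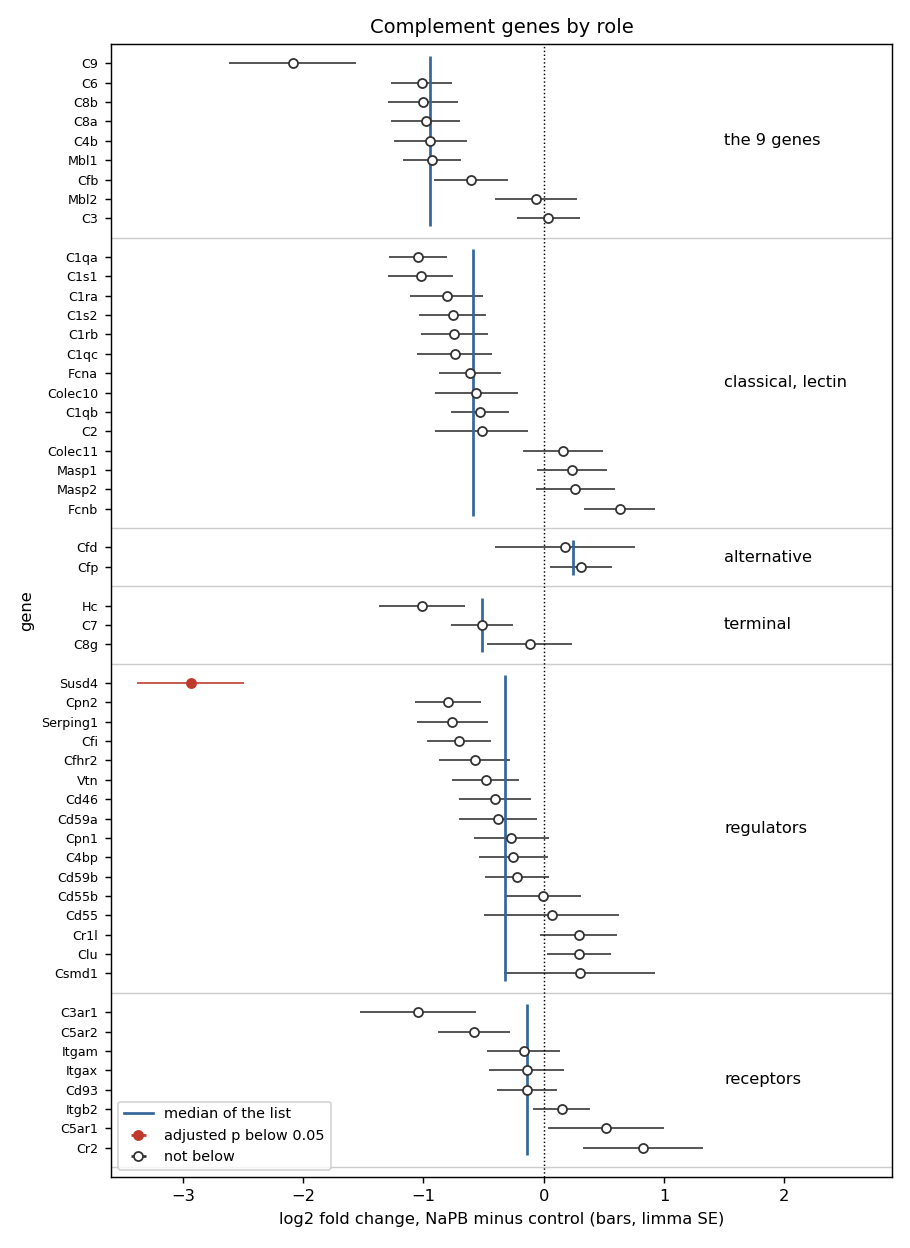
Log2 fold change (NaPB minus control, x axis) of every measured complement gene by role, with limma standard errors (n = 4 arrays per diet); filled red marks an adjusted p below 0.05 and vertical bars are medians of the lists. Susd4 alone is filled, the medians of the 9 genes and of the other classical and lectin genes are −0.94 and −0.59, and that of the receptors is −0.14.

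The pattern of C6, the member with the smallest p, was set against 9740 other named genes of at least median brightness. Likeness was the root mean square difference of values centred on each gene's mean, in log2 units over the 8 arrays. The nearest were Vwa5b2 (0.107), Nsd2 (0.125), Tspan33 (0.128), C1qa (0.137) and Sdf2l1 (0.142). C8b (0.147), Mbl1 (0.171) and C8a (0.188) were nearly as close, whereas C4b (0.415), C3 (0.571), Mbl2 (0.638) and C9 (0.864) were farther away.

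Acute phase genes, of which C3, C4b, Cfb and C9 are often counted as part, lay the other way on balance. Of 20 measured, none passed, 15 lay above 0 and the median log2 fold change was 0.59. Lcn2 (lipocalin 2) gave 18.5, 12.7, 8.40 and 216 on NaPB arrays, against 2.68, 2.44, 5.91 and 2.15 on control arrays. Its log2 fold change was 3.08 ± 0.86 (limma adjusted p = 0.163), and those of Lbp and Hpx were 1.20 ± 0.40 and 0.66 ± 0.28. Itih3, an inter-alpha-trypsin inhibitor heavy chain gene, lay lower, at −1.005 ± 0.45. On NaPB replicate 4 the mean of the 20 genes deviated by 2.19 log2 units from the control mean, and on the other NaPB arrays by −0.11 to 0.12. The mean of the 9 complement genes was −1.22 on that array and −0.87 to −0.48 on the other NaPB arrays. The difference between the lists was not tested.

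Of 11 markers of hepatocytes, the main source of these proteins, none passed and 8 lay below 0. Their median log2 fold change was −0.37. Alb (albumin, −1.24 ± 0.36) and Apoa1 (2.001-fold lower) did not overlap between the diets, and the other 9 did, where 4.31% of all genes lay lower without overlap. NaPB replicates 1 to 4 deviated in the list mean by −0.20, −0.03, −0.41 and −0.83, and the summed intensity ran from 5239 to 8617 on the NaPB diet and from 6948 to 12340 on the control diet. Ttr (0.06 ± 0.36), Ahsg (0.01 ± 0.29) and Hnf4a (0.29 ± 0.26) were close to 0, as were Mbl2 and C3. In whole liver, fewer cells of a type and less RNA per cell cannot be told apart, and the part of either in the complement values was not tested.

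Kupffer cell and macrophage markers, which bear on C1qa, were also lower in sum. Their summed intensity, which weights the brightest markers most, was 22.3 to 25.6 on the NaPB diet, against 30.4 to 32.8 on the control diet. The list mean nearly met between the diets, at −0.42 to −0.25 log2 units on NaPB arrays and −0.22 to 0.11 on control arrays. Of 10 markers, 8 lay below 0 and none passed (median −0.41), and Timd4 was at the floor on all 8 arrays. Without overlap, 3 of the 10 lay lower, against 4.31% of all genes. Clec4f had a log2 fold change of −0.50 ± 0.25. Adgre1, with the smallest p of the list, had −0.79 ± 0.33, and Csf1r, the marker of highest level, had −0.29 ± 0.25. The part of these cells in the values of C1qa was not tested. Of 9 neutrophil markers, 1 rose, where 0.391% of all genes were called higher. The marker that rose was S100a8 (86.5-fold, limma adjusted p = 0.0176), and no other passed. It was called in only 3 of the 8 fits with 1 array left out, those without control replicate 4, NaPB replicate 2 or NaPB replicate 4. With a pseudocount of 1 (log2 4.64; limma adjusted p = 0.121) and with a robust fit and variance trend (limma adjusted p = 0.051) it was not called. The other S100 gene of the list, S100a9, had a log2 fold change of 0.84 ± 0.50. Lists of B and T cell, stellate, endothelial and cholangiocyte markers had no gene that passed, with medians of 0.09, 0.04, −0.12 and 0.13.

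Male-biased liver genes were compared because of the sex difference of terminal complement. Of 11 measured, all lay below 0 (median −1.39) and 1 fell, where 0.617% of all genes were called lower. The gene that fell was Hsd3b5, a steroid dehydrogenase gene. It was 78.7-fold lower with 1 NaPB array at the floor (limma adjusted p = 0.0101). The list mean was −1.77, −0.76, −0.96 and −2.60 log2 units on NaPB replicates 1 to 4. On the same arrays C9 lay at −2.05, −1.01, −1.48 and −3.82, with NaPB replicate 4 lowest and NaPB replicate 2 highest in both. The hepatocyte markers, at −0.20, −0.03, −0.41 and −0.83, had the same lowest and highest NaPB arrays. So did the complement regulator genes, at −0.38, −0.16, −0.46 and −0.70. These lowest and highest NaPB arrays were therefore not particular to male-biased genes. The full order was not shared. NaPB replicate 3 lay above NaPB replicate 1 in C9 and the male-biased list, and below it in the hepatocyte markers and regulators. Of the 11, 4 lay lower without overlap, against 4.31% of all genes. The size of the change differed between members of the male-biased list. Nudt7 had −2.23 ± 0.46, Elovl3 −2.22 ± 0.68 and Cyp7b1 −1.74 ± 0.46, whereas Cyp2d9 had −0.15 ± 0.27 and Mup20 −0.27 ± 0.33. The part of sex-biased regulation in the values of C9 was not tested.

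**Figure D5:**
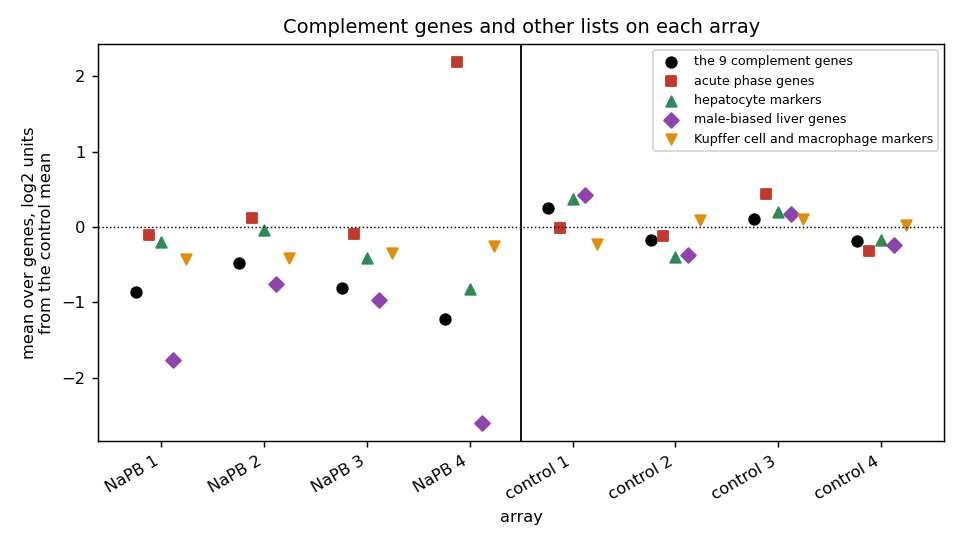
Mean over the genes of each list, in log2 units from the control mean (y axis), on each array (x axis, NaPB left of the line and control right of it). The 9 complement genes (circles) lie between −1.22 and −0.48 on the NaPB arrays, the acute phase genes (squares) reach 2.19 on NaPB replicate 4 alone, and the male-biased genes (diamonds) are lowest on NaPB replicates 4 and 1; triangles pointing up are hepatocyte markers and those pointing down Kupffer cell and macrophage markers.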

How the data were processed

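Total RNA of mouse liver was measured on 8 one-colour Cy3 arrays, per the labels, and the scans were quantified with Agilent Feature Extraction 10.7, per the submitters' processing notes. The deposited values are intensities on a linear scale, scaled by the authors to about the 75th percentile; how background was handled is not given in the sources used here. Of 62976 features, 31465 carried 1 gene symbol and 31511 none; symbols were updated through RefSeq tables of GRCm38.p6 (3282 changed). Log2 intensities, with no pseudocount, were fitted with limma 3.58.1 in R 4.3.3 with diet as its only term. Each gene entered through its brightest feature, and Benjamini-Hochberg adjustment ran over 20738 genes, with calls at an adjusted p below 0.05. Confidence intervals are 95% limma intervals.

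The members, lists and alternatives were chosen with earlier results of these data known. Named genes are the members, the called genes of the lists, the index genes and the 5 genes most like C6. Some genes with the smallest p of a list and some markers of high level are named too. Further list genes, among them Clec4f, were named after their values were seen. The fit was checked on simulated data. The replicate numbers were not shown to pair the arrays. Python 3.11.15, pandas 2.3.3 and matplotlib 3.10.9 made tables and figures.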

Additional observations from a re-analysis of the deposited data

How the results depend on the processing

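Of the 9 genes, 7 kept the sign of their difference under every alternative: quantile normalization, shifts to a common median or 75th percentile, dim genes left out, the mean of all features, a pseudocount of 1, array weights, a robust fit with a variance trend, the replicate block, and leaving out arrays. C3 turned to −0.011 with the mean of its features, and it ran from −0.067 to 0.18 with 1 array left out. Mbl2 turned to 0.19 with array weights and to 0.31 without both control replicate 1 and NaPB replicate 4, and it ran from −0.30 to 0.16 with 1 array left out. No member was called higher under any alternative. The count called lower was 0, with 6 at an unadjusted p below 0.05. It became 3 with array weights (C6, C9 at limma adjusted p = 0.0355, and Mbl1) and 2 with a pseudocount of 1. It was 1 each with dim genes left out and after quantile normalization. Over all genes tested in each setting, 0.617% were called lower in the main fit and 1.71% with array weights. The shares were 0.559% with a pseudocount of 1, 1.3% with dim genes left out and 1.1% after quantile normalization. Of the 20 features, 3 were called with array weights and 2 each with a pseudocount of 1 and quantile normalization. The calls over all genes, 209, were 812 with array weights, 328 after quantile normalization, 111 with a common median, 135 with the replicate block, 58 and 364 at thresholds of 0.01 and 0.1, 570 without both control replicate 1 and NaPB replicate 4, and 88 to 365 with 1 array left out (365 without NaPB replicate 4, and 88 to 119 without NaPB replicates 1, 2 or 3 or control replicates 2, 3 or 4). The thresholds change only the rule; for the rest the cause was not tested. Same-numbered arrays of the diets deviated from their means with correlations of 0.23, −0.29, 0.04 and 0.23, and 2 of 8 arrays were closest to their own number, so the numbers are not shown to pair arrays. The replicate block changed no member's call.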

Other observations

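Receptor genes for complement fragments gave no call among 8 measured (median log2 fold change −0.14). C3ar1, the receptor for C3a, had intensities of 0.08, 0.38, 0.08 and 0.11 on NaPB arrays, against 0.41, 0.23, 0.21 and 0.26 on control arrays; its log2 difference was −1.04 ± 0.48, with a limma adjusted p of 0.511. NaPB replicate 2 stood inside the control range, as it did for Hc. C5ar2 (−0.58 ± 0.30) and Cr2 (0.82 ± 0.50) had the next smallest p, with overlap between the diets in both.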
